A study of Mus musculus with 32 samples.

Results

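Mitochondrial ribosomal proteins are made from nuclear genes, translated in the cytosol and imported into mitochondria, where they join RNAs of mitochondrial origin to form the mitoribosome. Genes were taken by name: protein-coding entries of the deposited tables whose symbol starts with Mrpl (large subunit) or Mrps (small subunit) followed by a number. The rule found 78 of 55385 genes, 49 with Mrpl and 29 with Mrps symbols, and used no measured value. All 78 passed the filter on low counts, and 77 of them averaged at least 10 CPM (counts scaled to libraries of equal size). The exception was Mrpl23, at 7.15 CPM.

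RNA was measured in microglia, the resident macrophages of the brain, after a stab wound of the cerebral cortex. All mice were adult C57BL/6 animals heterozygous for Cx3cr1CreER, a tamoxifen-inducible recombinase expressed from the fractalkine receptor locus, and all received tamoxifen daily for 5 days from 8 to 10 weeks of age, before the wound, to label microglia with the yellow fluorescent protein EYFP. EYFP+ cells were sorted at days 1, 4, 7 and 14 from the wound site (injured) or from the matching place in the opposite, non-injured hemisphere of wounded mice (titled sham), in females and in males. Each of the 16 combinations of day, sex and side was deposited as 2 columns that differed by little more than counting noise (median chi-square of 0.4748 to 0.6386 per gene, against 0.4549 for noise alone). The columns were summed, which left 16 libraries in 8 pairs of 1 day and sex. Labels name no animals. With 1 pair per day and sex, the spread behind the injury p-values is the difference of the injury change between the sexes. It was taken within a day and pooled over days, and may be partly technical. Spread between animals of 1 sex was not measured. The Cx3cr1 locus is also active in other macrophages and in some monocytes, so the label does not exclude those cells.

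Each mitoribosome has a small subunit that reads the messenger RNA and a large subunit that forms peptide bonds. Many of its proteins descend from those of bacterial ribosomes, and others exist only in mitochondria. The assembled ribosome translates the 13 messenger RNAs of the mitochondrial genome, all of which encode subunits of the respiratory chain and ATP synthase. In microglia, as in other macrophages, activation is known to be accompanied by shifts between respiration and glycolysis.

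The first 3 members by p-value of the injury comparison with an entry in the RefSeq promoter table were Mrpl52, Mrpl33 and Mrpl27. Their promoters, from 250 bases before to 50 bases after the RefSeq start on GRCm38.p6, are printed because these genes carry the injury result most clearly. All hold the core CCGGAAG of ETS factors such as GABP, a regulator known for its role at genes of mitochondrial proteins. Capitals mark this core or its reverse complement, and each promoter lies on the plus strand: Mrpl52 at chr14:54426659-54426958, Mrpl33 at chr5:31613701-31614000 and Mrpl27 at chr11:94653541-94653840.
Mrpl52: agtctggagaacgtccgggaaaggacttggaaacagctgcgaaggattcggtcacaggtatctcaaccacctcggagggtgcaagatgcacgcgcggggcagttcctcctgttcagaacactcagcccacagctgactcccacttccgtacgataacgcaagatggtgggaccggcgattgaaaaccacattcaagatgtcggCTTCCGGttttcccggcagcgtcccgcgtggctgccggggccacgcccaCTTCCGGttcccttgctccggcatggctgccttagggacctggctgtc
Mrpl33: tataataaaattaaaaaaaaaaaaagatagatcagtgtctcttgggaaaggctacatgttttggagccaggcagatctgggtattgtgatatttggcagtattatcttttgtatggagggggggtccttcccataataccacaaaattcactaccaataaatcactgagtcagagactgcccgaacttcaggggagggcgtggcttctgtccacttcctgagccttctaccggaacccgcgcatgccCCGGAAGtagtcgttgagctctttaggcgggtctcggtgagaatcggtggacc
Mrpl27: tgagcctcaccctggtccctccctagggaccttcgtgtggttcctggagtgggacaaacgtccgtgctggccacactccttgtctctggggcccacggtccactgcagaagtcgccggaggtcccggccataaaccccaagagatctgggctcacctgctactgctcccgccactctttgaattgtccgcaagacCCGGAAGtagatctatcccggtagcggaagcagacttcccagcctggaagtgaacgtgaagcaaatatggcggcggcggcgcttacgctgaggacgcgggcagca
The core begins at base -47 and again at base 3 from the start in Mrpl52, at base -3 in Mrpl33 and at base -55 in Mrpl27. Such a match is a description of letters and does not show a bound factor.

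Promoter entries were found for 69 of the 78 members. The ETS core, searched on both strands, occurred in 25 of them (36.2%), compared with 9.12% of all 27025 promoters of the same length, 20.9% of those of expressed protein-coding genes (mean of 10 CPM or more) and 39.7% of those of cytosolic ribosomal proteins. NRF1 is another activator of nuclear genes for mitochondrial proteins, and its consensus with 1 free base occurred in 13 members (18.8%), compared with 4.78% of all promoters and 11.98% of expressed protein-coding ones. The form without a free base, which lies within it, was found in 3 members. The YY1 pattern AAGATGGC was present in 12 members (17.4%, against 2.88% of all promoters and 5.43% of expressed protein-coding ones), and 5 of these held the longer YY1 pattern that contains it. CACGTG, the E-box bound by MYC, occurred in 5 members, a share of 7.25%, compared with 7.24% of all promoters and 11.01% of expressed protein-coding ones.

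The injury comparison asked how these genes differ between microglia at the wound and those of the other hemisphere, averaged over the 4 days. A gene was called when its Benjamini-Hochberg adjusted p over all 28597 genes tested was under 0.05 in edgeR's quasi-likelihood test, and values are log2 changes, injured over non-injured. RNA of 34 of the 78 members rose at the wound, 0 fell and 44 were not called. At an unadjusted p under 0.05 were 60 members, all higher at the wound. DESeq2 called 46 members, again all higher, beside rises in 24.3% of the expressed protein-coding genes. Over all genes it called 2717 rises and 3801 falls. In edgeR, 7.76% of all genes tested rose and 7.96% fell, and of the 8826 protein-coding genes that averaged 10 CPM or more, 20.5% rose. At an unadjusted p under 0.05 were 8187 of all 28597 genes and 4139 of these 8826 (2817 higher at the wound). The median change over the 78 members was 0.76, compared with 0.21 over those protein-coding genes and -0.32 over all genes tested. Fitted changes were above 0 in 77 members, beside 5486 of the 8826 protein-coding genes, and reached 1.46 in Mrpl54.

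The count depended on the pair term, on single pairs and on the scaling. With sex as a covariate and no pair term, 1 member was called (7.33% of all genes were), and the labels do not show that the libraries of a pair share animals. Leaving out 1 pair at a time gave 0 members (day 1 female), 8 (day 1 male), 22 (day 4 female), 31 (day 4 male), 6 (day 7 female), 9 (day 7 male), 17 (day 14 female) or 29 (day 14 male). TMM factors, which correct each library total for its composition, were used throughout. With library totals alone, an alternative chosen after seeing the data, 13 of 78 members rose and 0 fell, beside rises in 11.4% of the expressed protein-coding genes. The members' median was then 0.39, that of the expressed protein-coding genes -0.16 and that of all genes -0.65. Of all calls, 49.4% were rises with TMM factors and 24.5% with library totals. In limma on log2(TPM + 1), where TPM is the deposited length-corrected level, 15 of 78 members rose, beside 9.67% of the expressed protein-coding genes, and 24.98% of all calls were rises.

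**Figure D1:**
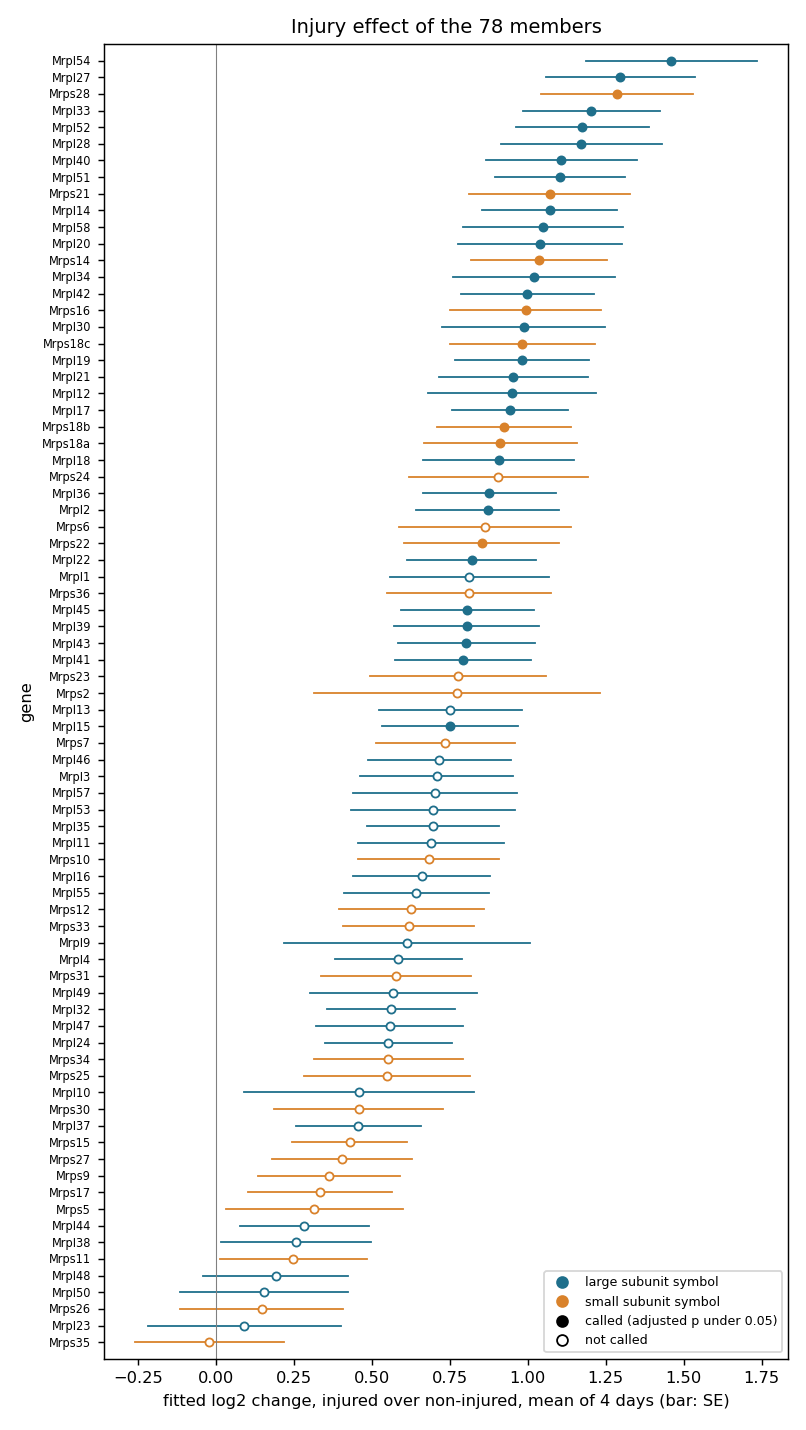
Fitted log2 change, injured over non-injured and averaged over 4 days (x axis, bars 1 SE), of the 78 members (y axis), with filled points for the 34 called genes and colours for Mrpl and Mrps symbols. Estimates run from -0.02 in Mrps35 to 1.46 in Mrpl54, and the 34 called genes lie in the upper part of the range.

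Large subunit genes were considered first, starting with relatives of bacterial proteins. Of 29 such genes, 16 rose, 0 fell and 13 were not called, with a median of 0.82. Mrpl27, whose bacterial relative lies near the site of peptide bond formation, was at 19.7 CPM in the lowest, 74.5 in the median and 168 in the highest injured library, and at 10.9, 18.8 and 108 CPM in the non-injured ones. The ranges overlapped, yet the injured library was the higher of its pair in 8 of 8 pairs. Mrpl27 rose by 1.30 (SE 0.24, adjusted p = 0.00676). It lies on chromosome 11 from 94653767 to 94660089 (GRCm38, GENCODE M21), and some of its exon bases overlap those of Eme1 on the other strand, from which unstranded reads cannot be separated.

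Mrpl33, a small protein of the large subunit, lay between 14.3 and 105 CPM at the wound (median 43.6) and between 7.40 and 44.2 CPM on the other side (median 15.6). Again the ranges overlapped and all 8 pairs had the higher level at the wound. Its rise was 1.20 (SE 0.22, adjusted p = 0.00632), and the gene spans 31596935 to 31664384 on chromosome 5. Mrpl12, which forms the flexible stalk that recruits translation factors, rose by 0.95 (SE 0.27, adjusted p = 0.0429) in 7 of 8 pairs. It was picked, like other members described for their role or low change, after its values were seen.

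Among 22 large subunit proteins listed as found only in mitochondria, 11 rose, 0 fell and 11 were not called (median 0.75). In the current nomenclature 1 of them, Mrpl47, is counted as a relative of a bacterial protein. Mrpl54 changed most of all members: it lay between 13.5 and 46.1 CPM at the wound (median 34.3) and between 5.09 and 22.3 CPM on the other side (median 10.8). Injured libraries were higher in 8 of 8 pairs although the ranges overlapped, and Mrpl54 rose by 1.46 (SE 0.28, adjusted p = 0.00748). The gene is on chromosome 10 from 81264713 to 81266934.

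Mrpl52 had the smallest p of the members, with 5.81 to 69.6 CPM at the wound (median 27.6) and 3.33 to 28.6 CPM on the other side (median 11.5). All 8 pairs were higher at the wound, with overlapping ranges, and the rise was 1.17 (SE 0.21, adjusted p = 0.00630). Mrpl52 is on chromosome 14 from 54426909 to 54429756. Mrpl51, on chromosome 6 from 125191801 to 125196269, lay between 22.6 and 138 CPM at the wound (median 59.8) and between 13.2 and 82.7 CPM on the other side (median 19.8). It too was higher in 8 of 8 pairs with overlapping ranges, and it rose by 1.10 (SE 0.21, adjusted p = 0.00781). Mrpl58, a peptidyl-tRNA hydrolase that was built into the large subunit, rose by 1.05 (SE 0.26, adjusted p = 0.0235).

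The small subunit had fewer calls. Of 16 relatives of bacterial proteins, 5 rose, 0 fell and 11 were not called (median 0.75). Of 10 proteins listed as found only in mitochondria, 2 rose, 0 fell and 8 were not called (median 0.56). The latter share is near the 20.5% of expressed protein-coding genes that rose. With library totals 3 of the 16 and 0 of the 10 rose, and in limma 2 and 0. Of the large subunit lists, 4 of 29 and 6 of 22 rose with library totals, and 6 and 7 in limma. Of the expressed protein-coding genes, 11.4% rose with library totals and 9.67% in limma. Whether the subunits differed was not tested. Mrps28, on chromosome 3 from 8802146 to 8923918, lay between 4.87 and 45.0 CPM at the wound (median 20.2) and between 3.29 and 16.2 CPM on the other side (median 9.49). Only the day 14 male pair was not higher at the wound, the ranges overlapped, and Mrps28 rose by 1.29 (SE 0.24, adjusted p = 0.00775). Rises were also called for Mrps14 (1.04), Mrps16 (0.99), Mrps21 (1.07), Mrps18c (0.98), Mrps18b (0.92) and Mrps22 (0.85). Mrps12, the relative of the bacterial protein that guards decoding accuracy, had a change of 0.63 (SE 0.23, adjusted p = 0.106) and was not called.

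**Figure D2:**
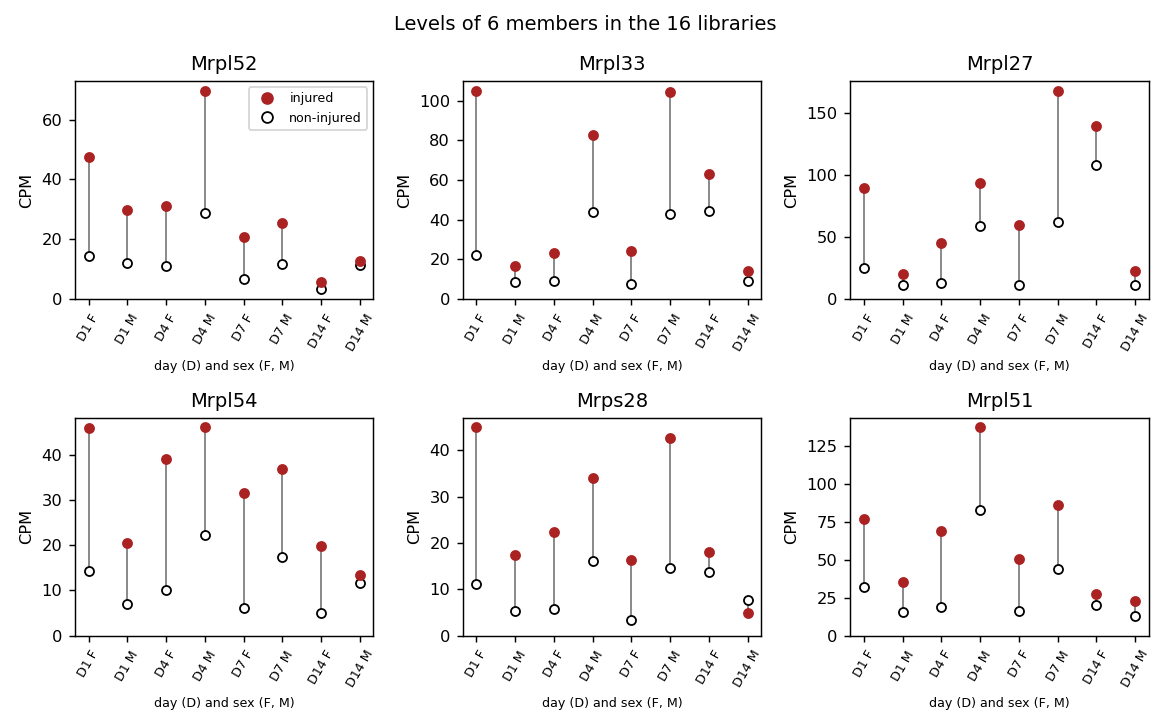
CPM (y axis, linear, from 0) of the 6 members with the smallest p in each pair of libraries (x axis, day and sex), with filled points for injured and open points for non-injured libraries joined by a line. Levels of 1 gene differ several-fold between pairs, and within a pair the injured library is higher in all 8 pairs for 5 genes and in 7 of 8 for Mrps28.

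Mrps18a, Mrps18b and Mrps18c are paralogs derived from 1 bacterial protein. The products of Mrps18b and Mrps18c sit in the small subunit and that of Mrps18a in the large one. Mrps18a and Mrps18b were nevertheless counted above in the lists of proteins found only in mitochondria. Changes of the paralogs a, b and c were alike in size. They were 0.91 (SE 0.25, adjusted p = 0.0350), 0.92 (SE 0.22, adjusted p = 0.0189) and 0.98 (SE 0.23, adjusted p = 0.0208). The injured library was the higher one in 7, 8 and 7 of 8 pairs. With library totals Mrps18a and Mrps18b were not called (adjusted p = 0.109 and 0.110) while Mrps18c was (adjusted p = 0.0488). Mrps36, now known as a subunit of the ketoglutarate dehydrogenase complex and not of the ribosome, had a change of 0.81 (SE 0.26, adjusted p = 0.0696), higher in 8 of 8 pairs, and was not called.

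Changes near 0 were seen as well. Mrps35, a small subunit protein found only in mitochondria, was at 6.24 to 21.7 CPM at the wound and 6.27 to 27.9 CPM on the other side, higher in 4 of 8 pairs, with a change of -0.02 (SE 0.24). Mrps26 and Mrpl48 had changes of 0.15 (SE 0.26) and 0.19 (SE 0.23), each higher in 5 of 8 pairs. Mrpl50 had a change of 0.15 (SE 0.27) over the 4 days, with a day 14 female pair at 12.99 CPM injured and 71.5 CPM non-injured.

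Mrpl23 cannot be read alone. Its processed pseudogene Mrpl23-ps1 received 21632 counts over all libraries and the gene itself 3509, so that 86.0% of their joint counts went to the pseudogene. Mrpl23 had a change of 0.09 (SE 0.31, adjusted p = 1) and was higher at the wound in 5 of 8 pairs. Mrpl23-ps1 rose by 0.98 (SE 0.21, adjusted p = 0.0124) and the sum of both was higher in 8 of 8 pairs. How reads were shared between the near-identical copies is not given in the sources used here. In all, 33 members shared exon bases with another annotated gene.

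Levels between members were compared in TPM, which corrects for length. Mean TPM over the 16 libraries ran from 8.27 in Mrpl1 to 234 in Mrpl42. After Mrpl42, the highest were Mrps21 (162 TPM) and Mrpl17 (149 TPM), and next to Mrpl1 the lowest were Mrpl47 and Mrpl19, both at 10.3 TPM. Mrpl42 lay between 72.5 TPM in the day 4 female non-injured and 649.8 TPM in the day 14 female injured library, and the spread of these abundant genes across libraries was wider than the gaps between them. Of these 6, Mrpl42, Mrps21, Mrpl17 and Mrpl19 rose at the wound by 1.00, 1.07, 0.94 and 0.98 (adjusted p = 0.0134, 0.0222, 0.00899 and 0.0145), and Mrpl1 and Mrpl47 were not called (0.81 and 0.56, adjusted p = 0.0605 and 0.153). With library totals, Mrps21, Mrpl17 and Mrpl19 were not called (adjusted p = 0.0558, 0.0591 and 0.0514). Mrpl19 shares exon bases with Gcfc2 on the opposite strand, and Mrpl47 with Actl6a and Ndufb5.

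Within pairs, the 78 members were described by the log2 ratio of CPM with 1 CPM added. At day 1 their median was 1.21 in females (78 of 78 higher at the wound) and 0.60 in males (72 of 78). At day 4 it was 1.15 (78 of 78) in females and 0.57 (66 of 78) in males. Day 7 gave 1.29 (77 of 78) and 0.71 (76 of 78), and day 14 gave 0.24 (45 of 78) and -0.03 (37 of 78). With TMM factors, though not with library totals in the day 7 male pair, most members were thus higher at the wound in all pairs of days 1, 4 and 7, and the day 14 pairs were close to an even split. Members were higher in all 8 pairs in 18 cases, in 7 pairs in 34, in 6 in 18, in 5 in 7 and in 4 in 1. Of the expressed protein-coding genes, 14% were higher in all 8 pairs. The share of those genes higher at the wound was 59.6% and 41.5% in the female and male pairs of day 1, 70.5% and 54.4% at day 4, 81.0% and 66.5% at day 7 and 49.7% and 51.1% at day 14. Many genes besides the members were thus higher in the female pairs of days 4 and 7, where the medians of the expressed protein-coding genes were 0.42 and 0.71. In 0 members did the lowest injured library exceed the highest non-injured one (0.589% of expressed protein-coding genes).

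**Figure D3:**
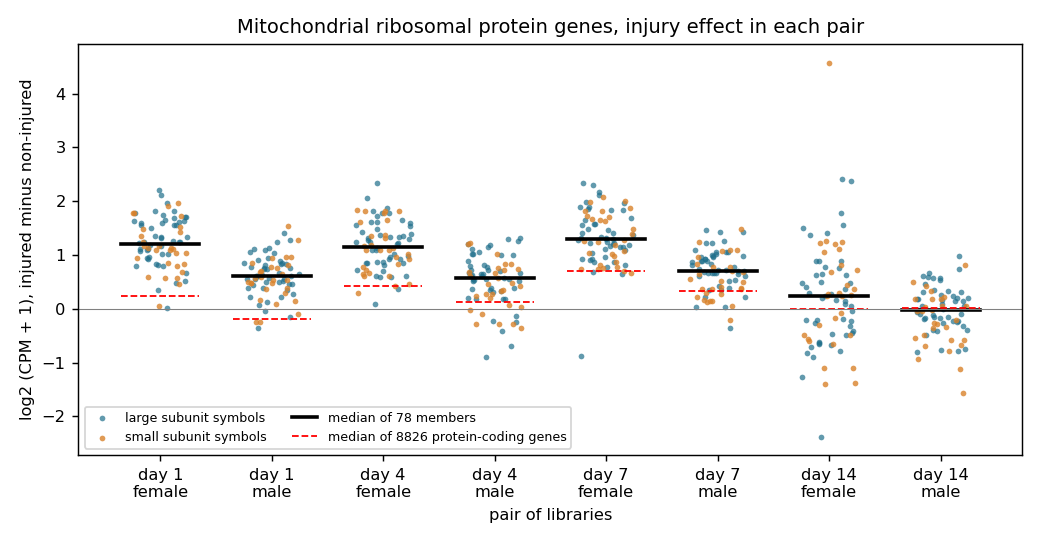
Log2 ratio of CPM plus 1, injured over non-injured (y axis), of the 78 members in each of 8 pairs (x axis), with a black line at their median and a dashed line at the median of 8826 protein-coding genes. With TMM factors, member medians lie between 0.57 and 1.29 in the pairs of days 1, 4 and 7 and at 0.24 and -0.03 at day 14.

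The day 7 male pair depended on the scaling. With TMM factors the summed level of all members was 4231 CPM at the wound and 2448 CPM on the other side, and with library totals it was 2986 and 3062 CPM. Its median log2 ratio went from 0.71 to -0.10, with 31 of 78 members higher at the wound, and in TPM to -0.19. The day 7 female median went from 1.29 to 0.33, while the day 1 medians of 0.81 and 0.79 and the day 4 medians of 0.53 and 0.55 with library totals stayed above 0. The day 14 female median was 0.24 with TMM factors and -0.02 in TPM. TMM factors ran from 0.689 to 1.55 over the libraries.

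Day by day, no member was called. At day 1 the fitted median was 0.97, 77 members lay above 0, and 0 of 78 were called (1.05% of all genes were), with 34 at an unadjusted p under 0.05. The smallest adjusted p was 0.0948, of Mrpl17, a large subunit protein with a day 1 change of 1.54 (SE 0.37). DESeq2 called 27 members at that day, beside 15.1% of the genes it tested, a share that here and below counts both directions. In simulated counts of this design, 23% of genes changed by 1 on the log2 scale were recovered at day 1. In the mean of the 4 days, 100% of those genes were recovered. The simulated counts had the same fixed dispersion for every gene and no differences between pairs or sexes. The recovery in the measured libraries is thus not given by them.

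At day 4 the fitted median was 0.89 and 0 of 78 were called (2.04% of all genes), with 30 at an unadjusted p under 0.05 and 3 called by DESeq2 (13.9% of the genes it tested). Mrpl14, a neighbour of the intersubunit surface in bacteria, had the smallest adjusted p (0.128, change 1.48, SE 0.43). At day 7 the median was 1.02, with 0 of 78 called (0.374% of all genes), 41 at an unadjusted p under 0.05 and 7 called by DESeq2 (12.9% of its genes). There Mrpl27 had the smallest adjusted p (0.107, change 1.92, SE 0.48). The day 7 median was 0.10 with library totals and 0.002 in limma on TPM.

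At day 14 the median of the fitted changes was 0.02, 40 members lay above 0 and 38 below. Calls were 0 of 78 (0.0594% of all genes), with 3 at an unadjusted p under 0.05 and 1 called by DESeq2 (13.6% of its genes). Medians over all genes were -0.05, -0.20, -0.84 and -0.00 at the 4 days, and those over the expressed protein-coding genes 0.02, 0.26, 0.53 and -0.00. At an unadjusted p under 0.05 were 2344, 2315, 2558 and 1489 of the 8826 expressed protein-coding genes at the 4 days. Fitted changes above 0 were seen in 4469, 5505, 6705 and 4389 of them. Whether the injury change differed between days was tested over all days at once, and 0 of 78 members were called (0% of all genes). At an unadjusted p under 0.05 were 2 members, beside 722 of the 8826, with a smallest member adjusted p of 0.675 and 0 members called by DESeq2. A difference of day 14 from the earlier days is thus not shown by the test.

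Females had the larger member median at each of the 4 days with TMM factors, whereas with library totals the day 4 order was the opposite (0.53 in females and 0.55 in males). The injury change in females minus that in males had a median of 0.60, with 71 of 78 members above 0. The expressed protein-coding genes leaned the same way, with a median of 0.31 and 6342 of 8826 above 0. Medians were 0.71 in cytosolic ribosomal proteins, 1.09 in nuclear genes of the respiratory chain and 1.045 in the mitochondrial messenger RNAs. By the test of the female-minus-male difference 0 members were called (0% of all genes), and DESeq2 also called 0. At an unadjusted p under 0.05 were 16 members in edgeR, beside 1284 of the 8826 expressed protein-coding genes, and 6 members in DESeq2. The smallest adjusted p was 0.470, of Mrpl9 (1.76, SE 0.50).

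Partner genes of the mitoribosome were read from lists of known function. Of 5 mitoribosomal proteins with other symbols 4 rose: Chchd1 (1.30, SE 0.23, adjusted p = 0.00536), Aurkaip1 (1.03, SE 0.22, adjusted p = 0.0133), Gadd45gip1 (0.78) and Dap3 (0.85), and Ptcd3 was not called (0.38). With library totals and in limma 2 of the 5 rose, and Gadd45gip1 was not called in either (adjusted p = 0.146 and 0.305). Of 15 translation factors and helpers 3 rose and 0 fell (median 0.34), a share near the 20.5% of expressed protein-coding genes that rose. These were Slirp, which stabilises mitochondrial messenger RNAs (1.34, SE 0.22, adjusted p = 0.00408), the ribosome recycling factor Mrrf (1.08) and the elongation factor Tsfm (0.93), of which only Slirp was called with library totals. Among 22 assembly factors 1 rose, Fastkd2 (1.00, SE 0.22, adjusted p = 0.0142), and 0 fell, with a median of 0.23. With library totals 0 assembly factors rose and 3 fell, and the medians of both lists turned negative (-0.14 for assembly and -0.02 for translation factors). Beside these, 3978 of all 28597 genes fell with library totals, and the median of the expressed protein-coding genes was -0.16.

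Of 13 regulators of mitochondrial transcription and biogenesis, 0 rose and 1 fell (median -0.10), a share near the 7.96% of all genes tested that fell. The gene called was Ppargc1a, the coactivator known for driving mitochondrial biogenesis. Its levels were low, with a mean under 10 CPM on both sides. They spanned 0 to 5.36 CPM in injured libraries (median 0.77) and 1.58 to 21.0 CPM in non-injured ones (median 5.53). The injured library had less in 8 of 8 pairs (-2.41, SE 0.41, adjusted p = 0.00425). Nrf1 and Gabpa, whose patterns were searched in the promoters, had changes of -0.10 and 0.25 and were not called, and neither was Myc (-0.26). Members that held the ETS core had a median change of 0.91 (17 of 25 called) and those without it 0.69 (13 of 44 called), a description of which no test was made. For the NRF1 pattern with a free base the medians were 0.80 with it (7 of 13 called) and 0.77 without (23 of 56 called). The order was the opposite for the YY1 pattern AAGATGGC, at 0.66 with it (3 of 12 called) and 0.80 without (27 of 57 called). So it was for the longer YY1 pattern (0.46 and 0.80) and the NRF1 form without a free base (0.61 and 0.78). For the E-box the medians were 0.88 with it (4 of 5 called) and 0.75 without (26 of 64 called).

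The 13 mitochondrial messenger RNAs that these ribosomes translate gave 0 rises and 0 falls by edgeR, with 1 at an unadjusted p under 0.05, a median of -0.33 and 13 of 13 fitted changes below 0. Over all 28597 genes tested the median was -0.32, and 17176 fitted changes lay below 0. With library totals 4 of the 13 fell, and in limma 3, beside 3978 and 3279 of all 28597 genes. Of 83 cytosolic ribosomal proteins 74 rose and 0 fell (median 1.25), among them Rps27l (1.87, SE 0.20, adjusted p = 0.000594), Rplp0 (1.497) and Rpl6 (1.37). The nuclear genes of the respiratory chain gave 29 rises and 0 falls of 85 tested (median 0.79; 20.5% of expressed protein-coding genes rose), with Sdhd (1.18), Atp5g1 (1.23) and Uqcrb (1.17) having the smallest p. With library totals 65 cytosolic ribosomal and 12 respiratory chain genes rose and 0 of either list fell. Of the expressed protein-coding genes, 11.4% rose with that scaling. Differences between these lists and the mitoribosomal genes were not tested.

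**Figure D4:**
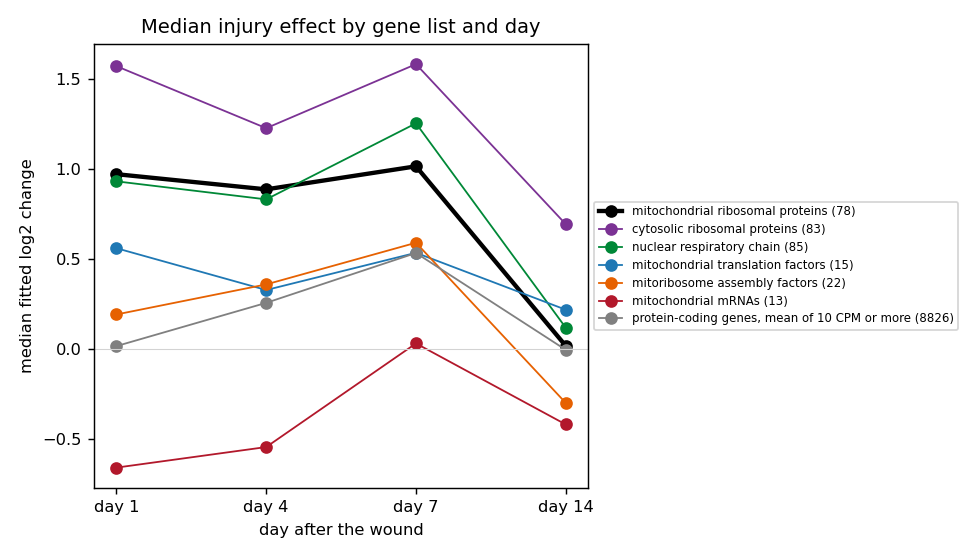
Median fitted log2 change, injured over non-injured (y axis), at each day (x axis) for the mitoribosomal genes, 5 related gene lists and the expressed protein-coding genes, with the number of genes in brackets and lines joining days of a list. Mitoribosomal medians are 0.97, 0.89, 1.02 and 0.02, and cytosolic ribosomal proteins lie above them at each day.

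Summed markers of several cell types differed between the sides, and library quality varied between libraries. In sums of CPM, 6 monocyte markers lay between 20.9 and 209.5 at the wound and between 1.23 and 27.5 on the other side, 6 markers of dividing cells between 41.6 and 679.8 and between 8.59 and 156.5, and each pair had both sums higher on the injured side. In those lists 5 and 4 markers rose. Neutrophil markers (4 of 6 rose) were at 2.51 to 167.6 CPM against 0.0411 to 5.46, with Mpo and Ly6g at 0 in 7 of the 16 libraries each, and T and NK cell markers (3 of 6 rose) at 4.65 to 15.5 CPM against 0 to 12.8. Border-associated macrophage markers (2 of 5 rose) were at 69.7 to 2622 CPM against 15.1 to 462.4, higher at the wound in 6 of 8 pairs. Neuron markers, all 5 of which fell, lay at 6.60 to 84.4 CPM against 34.8 to 1837. Microglia markers were present in every library, and 4 of 6 fell (6753 to 32940 CPM at the wound against 8885 to 56440). Of the other tissue markers, 1 of 5 for astrocytes, 1 of 5 for oligodendrocytes and 2 of 4 for endothelium fell and 0 rose. The part of these cells in the change of the mitoribosomal genes was not tested, and in bulk RNA more cells of a type and more RNA per cell cannot be told apart. Libraries held 20863982 to 55378788 counts, detected 14737 to 40975 genes and had 0.697% to 25.7% mitochondrial counts, the highest in the day 4 male non-injured library. Without the day 4 and day 7 male pairs together 22 members rose, beside 16.2% of the expressed protein-coding genes.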

How the data were processed

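Polyadenylated RNA of 32 samples was analysed. Tools named in the submitters' processing notes are DESeq2 1.26.0 and Salmon 1.0.0, with no role; no source used here states the build or annotation. The authors deposited expected counts per gene, not normalized, and TPM values; replicates stand in separate columns. The SMART-Seq v4 and Nextera XT kits keep no strand, per the labels' protocols. Here both columns of each day, sex and side were summed and rounded, after they differed by little more than counting noise. Genes passed filterByExpr (minimum count 10), and the quasi-likelihood test of edgeR 4.0.16 (R 4.3.3; TMM factors) ran on 28597, with 8 pair means and 4 injury effects (4 residual and 5.32 prior degrees of freedom). Calls used a Benjamini-Hochberg adjusted p under 0.05, and each SE is the size of the log2 change divided by the root of F. The mean of the 4 days and their differences were contrasts. The female-minus-male term was tested in a second fit that added it (3 residual degrees of freedom). CPM use TMM-scaled totals.

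Coordinates came from GENCODE M21 (GRCm38), in which 78 of 78 members were found, and promoters from the RefSeq table of GRCm38.p6. The members, lists and rules were chosen with earlier results of these data known. The named members were the 6 called ones with the smallest p, the 3 highest and 3 lowest in TPM and the Mrps18 paralogs, and up to 3 called genes with the smallest p per related list. Alternatives were RLE factors, no filter, DESeq2 1.42.0, limma 3.58.1 on log2(TPM + 1), the legacy dispersion, a sex covariate without pairs, the 32 columns with and without a replicate block, and leaving out each pair or replicate. All 32 columns were used. The fit was tested on simulated counts.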

Additional observations from a re-analysis of the deposited data

How the results depend on the processing

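Settings that move a count are grouped here, with the cause not tested unless named. Members called in the mean of the 4 days were 32 with RLE factors (which moved the median of all genes from -0.32 to -0.44), 28 without the filter, 46 in DESeq2, 37 with the legacy dispersion, 15 in limma on TPM, 1 with a sex covariate and no pairs, 22 without the day 4 and 7 male pairs and 13 with library totals, and 0 to 32 without single pairs or replicates. Beside these, rises among expressed protein-coding genes were 18.0% with RLE factors, 18.1% without the filter, 24.3% in DESeq2 and 24.05% with the legacy dispersion. The share was 9.67% in limma, 6.88% with a sex covariate and no pairs, 16.2% without those male pairs and 11.4% with library totals. Without single pairs or replicates it ran from 6.83% to 19.8%. Of the original 34 members, 32 were shared with RLE factors, 34 with DESeq2, 14 with limma and 13 with library totals. DESeq2 called 27, 3, 7 and 1 members at days 1, 4, 7 and 14, limma 2 at day 1, and the legacy dispersion 1, 4 and 1 at days 1, 7 and 14. Without single pairs or replicates day 1 gave 0 to 1. The median change ran from 0.63 to 1.25 at day 1, 0.72 to 1.22 at day 4, 0.71 to 1.41 at day 7 and -0.039 to 0.26 at day 14 in those fits, and at day 7 it was 0.0024 in limma and 0.10 with library totals.

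Equal replicate numbers did not deviate together (correlations of -0.01764 to 0.02933 over the 8 pairs). Because the columns differ by little more than counting noise, this cannot show whether equal numbers share more than a number. With 32 columns as separate samples and the replicate block, 59, 55, 52 and 15 members were called at the 4 days, 63 in their mean, 37 between sexes and 37 between days, where 35.7%, 33.4%, 48.8%, 37%, 54.1%, 22.6% and 39.9% of all genes were called. Without the replicate block these were 65, 63, 64 and 31, 68, 49 and 54 members, beside 49.4%, 45.1%, 62.1%, 50.9%, 63.1%, 38.3% and 63.6% of all genes, in fits whose columns differ by counting noise. For the 15 members named by rule, 230 of 300 alternative values kept their side of the threshold, 64 lost the call, 6 gained it and 0 changed sign. The least counted member, Mrpl23, held 3509 counts over the 16 libraries and was at 0 in 0 of them.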

Other observations

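The pair of day 14 female libraries spread the members widest, with log2 ratios from -2.37 in Mrpl50 to 4.57 in Mrps2. Mrps2, a small subunit protein related to a bacterial one, was at 0.247 CPM in the day 14 female non-injured library and between 14.3 and 35.7 CPM in the other non-injured ones, and between 16.8 and 48.7 CPM at the wound. Mrpl9 was at 1.68 CPM in the same library and between 10.4 and 38.6 CPM in the other non-injured ones. These 2 libraries detected 14737 and 14777 genes, the fewest of the 16. The genes were picked after their values were seen, and the cause was not tested.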
